A study of Mus musculus with 18 samples.

Results

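A set of 10 genes of the glycolytic pathway was followed in whole ovaries of female F1 mice, namely Hk1, Hk2, Gpi1, Pfkl, Pfkp, Aldoa, Pgk1, Eno1, Pkm and Ldha. They were chosen by symbol from a list of glycolysis enzymes and not by their values, and they make up 10 of the 30172 genes in the deposited data. The ovaries were those of wild-type C57BL/6J pups at postnatal day 3, 7 or 21 (Pd3, Pd7 and Pd21). Their dams ate a high-methionine diet (3% methionine), used to raise homocysteine (hyperhomocysteinemia, HHcy), or a control diet, and every sire ate a normal diet. According to the labels the diet began 4 weeks before mating and went on through gestation and lactation, while the study's methods describe a longer feeding period before mating. The pups were not treated themselves. The study kept the diet in place until weaning, and whether pups ate any of it directly was not tested. The groups are called F1-Control and F1-HHcy, and each of the 6 groups formed by diet and day held 3 RNA-seq libraries, 18 in all. Batch 1 of the labels holds the Pd3 and Pd7 libraries and batch 2 those of Pd21. The sources used here do not say whether the 3 libraries of a group came from separate litters, so p-values measure the spread between these libraries.

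Glycolysis splits glucose into pyruvate in the cytosol and yields ATP without oxygen. In the follicle the work is shared between cell types: the oocyte uses glucose poorly and burns pyruvate, while the granulosa cells around it are glycolytic and supply it with pyruvate and lactate. Many enzymes of the pathway exist as isozymes from separate genes, and many are targets of the hypoxia-inducible factors and of MYC.

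Values are FPKM, fragments counted on a gene, scaled to its length and to the depth of the library. The fragments counted on genes, recovered from the values, lay between 33630641 and 39399281 per library. Oocyte, granulosa and theca markers were present in all groups, as a whole ovary should have. In every library oocyte marker sums were 830.8 FPKM or more and skeletal muscle marker sums 11.5 FPKM or less. Adipocyte marker sums at Pd21 were 53.6 to 317.4 FPKM in F1-Control and 7.65 to 81.7 FPKM in F1-HHcy. Multiciliated and oviduct marker sums at Pd21 were 94.2 to 486.0 FPKM in F1-Control and 8.65 to 20.9 FPKM in F1-HHcy. Marker lists also differed between diets, where 3.07% of all genes were called at Pd3 and 11.9% at Pd7. All 8 erythroid genes were called lower in F1-HHcy at Pd3 (summed level 784.3 to 1107.9 FPKM against 3945.1 to 11298.5 in F1-Control), as were all 5 that could be tested at Pd7. All 7 theca genes were called higher at Pd7 (1172.1 to 1230.3 against 233.4 to 467.9 FPKM). Of 12 oocyte genes, 2 were called higher at Pd3 (summed level 1449.4 to 1994.5 FPKM against 830.8 to 1133.5). The list was split there, with 6 genes above F1-Control without overlap and 3 below (11.8% and 16.1% of all genes). At Pd7, 5 oocyte genes were called lower and 2 higher (1033.0 to 1594.7 against 1619.5 to 2601.9 FPKM). Of the granulosa genes, 2 of 8 tested were called higher at Pd3 (352.5 to 626.3 against 346.8 to 401.3 FPKM). There 3 lay above F1-Control without overlap and 2 below. At Pd7, 2 of 10 granulosa genes were called higher and 1 lower (608.7 to 967.7 against 382.8 to 664.0 FPKM). Of 8 stroma and smooth muscle genes, 1 was called higher at Pd3 (1002.4 to 1382.8 against 643.5 to 828.6 FPKM). The part of these cell types in the differences of the enzymes was not tested. In bulk tissue, fewer cells of a type and less RNA per cell cannot be told apart. The third F1-HHcy library of Pd3 stood apart. Eno1b, a near-identical copy of Eno1, held 1215 fragments there and 38 to 164 in the other 17 libraries. The theca marker sum of that library was 89.2 FPKM, against 369.9 and 712.7 in the other F1-HHcy libraries of the day. It was 106.7 to 161.5 FPKM in F1-Control. Hsd3b1 held 61.6 FPKM of that sum, against 339.9 and 604.0 FPKM. For Cyp17a1 it was F1-HHcy replicate 1 that stood apart (43.3 FPKM, against 1.06 and 0.552). Leaving out F1-HHcy replicate 3 took the genes called at Pd3 from 408 to 2824.

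The 10 enzymes spanned a wide range of levels per length. In F1-Control ovaries at Pd3, aldolase Aldoa, which splits the doubly phosphorylated sugar, was highest at 167.2 ± 4.13 FPKM (SD, n = 3). Enolase Eno1, which makes phosphoenolpyruvate, followed at 127.9 ± 10.9 FPKM. The isomerase Gpi1 (98.9 ± 4.07 FPKM) and the pyruvate kinase Pkm (98.7 ± 6.91 FPKM) came next and did not differ beyond their spread. The kinase Pgk1, the first ATP-yielding step, stood at 71.8 ± 3.85 FPKM and the lactate dehydrogenase subunit Ldha at 30.6 ± 1.73 FPKM. The liver-type phosphofructokinase Pfkl, an isozyme of the committed step, had 17.9 ± 3.29 FPKM, and the housekeeping hexokinase Hk1, which traps glucose in the cell, 5.93 ± 0.392 FPKM. Lowest were the inducible hexokinase Hk2 (1.68 ± 0.670 FPKM) and the platelet-type phosphofructokinase Pfkp (1.27 ± 0.138 FPKM), which did not differ beyond their spread. The lengths behind these levels, recovered from the deposited values, ran from 1825 bases for Pgk1 to 7687 for Pkm. A gene had 1 length for all libraries, so a level per length averages over its isoforms. The order of the genes given here depends on these lengths and need not be the order of their transcript numbers.

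Promoters are shown for the members that passed a test (Pfkp and Gpi1) and for Pgk1, Eno1 and Ldha, which were called lower at Pd7 in the fit without F1-Control replicate 1. The sequences are RefSeq's for build GRCm38.p6, 250 bases upstream of a transcript start, written 5′ to 3′ on the transcribed strand, with every ACGTG or GCGTG (either strand, the core bound by hypoxia-inducible factors) in capitals. Pfkp lies on chromosome 13 from 6579874 to 6649060, minus strand, and its window is chr13:6648772-6649021. Gpi1 lies on chromosome 7 from 34201327 to 34230336, minus strand, with the window chr7:34230337-34230586. Pgk1 lies on chromosome X from 106187100 to 106203699, plus strand, with the window chrX:106186850-106187099. Eno1 lies on chromosome 4 from 150236708 to 150248879, plus strand, and the window of the first of its 3 listed starts is chr4:150236458-150236707. Ldha lies on chromosome 7 from 46842274 to 46855627, plus strand, and the window shown, of the first of its 2 listed starts, is chr7:46845554-46845803. The windows of Pfkp and Ldha belong to starts inside the outer limits of these genes. Of the other members, Hk1 and Pfkl lie on chromosome 10, Hk2 on chromosome 6, Aldoa on chromosome 7 and Pkm on chromosome 9.
Pfkp: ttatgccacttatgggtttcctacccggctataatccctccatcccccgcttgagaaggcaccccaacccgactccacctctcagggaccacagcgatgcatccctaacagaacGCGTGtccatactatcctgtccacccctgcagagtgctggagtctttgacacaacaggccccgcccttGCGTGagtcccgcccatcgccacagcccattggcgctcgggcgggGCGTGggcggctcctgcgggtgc
Gpi1: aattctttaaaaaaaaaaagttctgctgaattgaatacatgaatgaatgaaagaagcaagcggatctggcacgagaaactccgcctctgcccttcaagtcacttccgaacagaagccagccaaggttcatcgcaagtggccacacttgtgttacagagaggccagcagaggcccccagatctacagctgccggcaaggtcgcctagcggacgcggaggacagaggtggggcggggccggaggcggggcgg
Pgk1: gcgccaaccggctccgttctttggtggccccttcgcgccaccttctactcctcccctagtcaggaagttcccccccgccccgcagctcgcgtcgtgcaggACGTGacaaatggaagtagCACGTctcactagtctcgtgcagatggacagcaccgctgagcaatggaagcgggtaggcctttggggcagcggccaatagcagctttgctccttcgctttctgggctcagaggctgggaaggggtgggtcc
Eno1: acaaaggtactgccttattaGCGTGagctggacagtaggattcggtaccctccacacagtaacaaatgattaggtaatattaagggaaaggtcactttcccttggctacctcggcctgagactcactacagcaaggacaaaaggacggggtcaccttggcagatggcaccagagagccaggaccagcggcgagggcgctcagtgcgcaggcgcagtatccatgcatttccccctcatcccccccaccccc
Ldha: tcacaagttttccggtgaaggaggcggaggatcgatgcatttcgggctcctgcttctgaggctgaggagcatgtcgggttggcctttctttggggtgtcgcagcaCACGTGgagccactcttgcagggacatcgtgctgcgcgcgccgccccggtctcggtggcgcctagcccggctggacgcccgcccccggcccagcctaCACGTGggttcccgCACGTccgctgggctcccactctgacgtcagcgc
Pfkp held 3 matches, Pgk1 2, Eno1 1, Ldha 5 and Gpi1 0, where overlapping matches on the 2 strands count separately. The other starts of Eno1 held 2 each, and the other start of Ldha held 1. The Ldha window also held 2 copies of CACGTG, the E-box bound by MYC, each of which contains 2 of the 5 matches. All 10 members had an entry, with 17 starts in all, of which 13 held the hypoxia core, where 38.6% of 32841 mouse promoter windows did, and 1 held CACGTG, where 6.02% did. The members' windows held 49.6% to 71.2% G and C, and the mouse windows were not matched for this. Several starts of 1 gene overlap, and a match of letters is not a site shown to be bound.

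The sum of the 10 enzymes, given as a description with no test, was 601.5 to 645.1 FPKM in F1-Control and 538.7 to 605.2 FPKM in F1-HHcy at Pd3. At Pd7 it was 582.4 to 844.5 FPKM in F1-Control and 454.7 to 604.4 FPKM in F1-HHcy. At Pd21 it was 721.8 to 781.4 and 551.9 to 705.0 FPKM. The F1-HHcy sums lay below those of F1-Control without overlap at Pd21 and overlapped them at Pd3 and Pd7. With median-ratio scaling the Pd21 sums touched as well (highest F1-HHcy library 719.9 FPKM, lowest F1-Control library 719.7 FPKM).

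**Figure D1:**
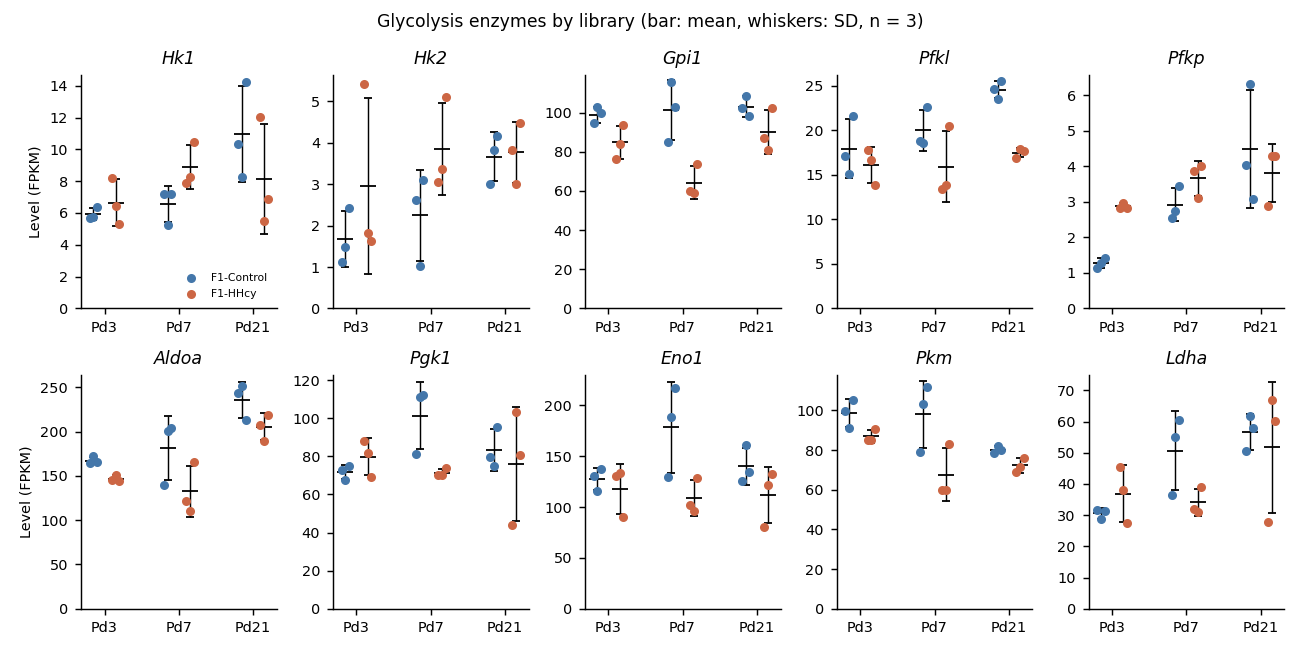
Level of each glycolysis enzyme in FPKM (vertical axis, from 0) in each of the 18 libraries, by day and maternal diet, with the mean and SD of 3 libraries. Pfkp at Pd3 separates widely (1.14 to 1.41 FPKM in F1-Control, 2.82 to 2.98 in F1-HHcy), and Gpi1 at Pd7 separates in the opposite direction (85.0 to 115.4 against 58.8 to 73.9).

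The first question was whether the maternal diet altered these enzymes at Pd3, when most follicles are still primordial. Pfkp was the only 1 of the 10 that passed the test. Its F1-Control libraries held 1.14, 1.27 and 1.41 FPKM and its F1-HHcy libraries 2.82, 2.98 and 2.83 FPKM. All F1-HHcy libraries were above all F1-Control libraries, on 437 to 478 fragments against 179 to 222. The rise on the log2(FPKM + 1) scale was 0.77 (SE 0.13; adjusted p = 0.0303, limma with Benjamini-Hochberg adjustment over 13277 genes). Adding 1 FPKM understates the change of so low a gene: with 0.1 FPKM added the log2 change was 1.12 (adjusted p = 0.0314), and limma-voom on recovered fragments gave 1.21 (adjusted p = 0.0314). Among all genes tested, 3.07% (408 genes) were called, beside 1 of the 10 members. That share rested on single libraries, with 2824 genes called without F1-HHcy replicate 3, at most 1 without F1-Control replicate 1 or replicate 2, and 53 to 84 without each of the others. The Pfkp call was also lost without the filter on low values (adjusted p = 0.116). It was lost too when any 1 library other than F1-HHcy replicate 3 was left out (adjusted p = 0.194, 0.149 and 0.0807 without F1-Control replicates 1, 2 and 3, and 0.0799 and 0.0976 without F1-HHcy replicates 1 and 2), with log2 changes of 0.73 to 0.82.

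The other members at Pd3 had adjusted p-values of 0.267 or more. Gpi1, Aldoa and Pkm lay lower in every F1-HHcy library than in every F1-Control library, as did 16.1% of all genes. Aldoa stood at 164.4, 172.0 and 165.3 FPKM in F1-Control and at 145.8, 151.1 and 144.2 FPKM in F1-HHcy, a log2 difference of -0.18 (SE 0.092; adjusted p = 0.281). Together with Pfkp this makes 4 of 10 members whose groups did not overlap, where 27.9% of all genes tested did not. Ldha had 31.8, 28.6 and 31.5 FPKM in F1-Control and 45.4, 38.0 and 27.4 FPKM in F1-HHcy. The groups overlapped through F1-HHcy replicate 3, and without that library Ldha was called higher (log2 change 0.43, adjusted p = 0.0330), in a fit that called 21.6% of all genes. The same library held the lowest Eno1 of Pd3 (90.0 FPKM, against 115.9 to 137.1 in the other 5). Counting Eno1 and Eno1b together took the Eno1 difference from -0.14 to -0.055 on the log2(FPKM + 1) scale, uncalled both ways. Reads of the copies cannot be told apart with certainty. Hk2 had 5.41 FPKM in F1-HHcy replicate 1 and 1.13 to 2.42 FPKM in the other 5 libraries.

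The second question was the same at Pd7. Here 7 of the 10 members had lower means in F1-HHcy (50.2% of all genes had a negative difference), and the median log2 difference of the 10 was -0.47, beside -0.0015 over all 13299 genes tested. One member was called, Gpi1, where 11.9% of all genes were called, so the number of calls among members is close to the background. Unadjusted p-values under 0.05 were reached by 7 members, 5 of them lower, where 31.5% of all genes reached it in either direction and 15.9% as lower.

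Gpi1, which converts the glucose phosphate to its fructose form, had 85.0, 115.4 and 102.9 FPKM in F1-Control and 60.1, 58.8 and 73.9 FPKM in F1-HHcy. The groups did not overlap, and Gpi1 fell by 0.64 on the log2(FPKM + 1) scale (SE 0.17, adjusted p = 0.0361, limma). The call held when F1-Control replicate 1 or F1-HHcy replicate 3 was left out and was lost without each of the other 4 libraries, with adjusted p = 0.0832 and 0.0648 without F1-Control replicates 2 and 3 and 0.153 and 0.140 without F1-HHcy replicates 1 and 2. It was also lost without the filter on low values (adjusted p = 0.102).

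Eno1 had 129.8, 188.3 and 217.2 FPKM in F1-Control and 102.3, 95.7 and 129.0 FPKM in F1-HHcy. The groups did not overlap, with a log2 difference of -0.69 (SE 0.21; adjusted p = 0.0632). Pgk1 had 81.1, 111.1 and 112.0 FPKM against 70.2, 69.9 and 73.6 FPKM, again without overlap, and a log2 difference of -0.49 (SE 0.16; adjusted p = 0.0758). Neither passed the test. Pkm (79.1, 103.3 and 111.6 FPKM against 59.95, 59.8 and 83.2 FPKM) and Ldha (36.3, 55.0 and 60.5 FPKM against 32.1, 31.2 and 39.1 FPKM) overlapped by 1 library each and had log2 differences of -0.53 and -0.53 (adjusted p = 0.0911 and 0.104). Aldoa (-0.45, adjusted p = 0.171) and Pfkl (-0.33, adjusted p = 0.235) had the same sign and also missed the test.

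F1-Control replicate 1 was the lowest F1-Control library for Gpi1, Aldoa, Pgk1, Eno1, Pkm and Ldha. It was also the library with the most erythroid marker RNA of Pd7 (5795.3 FPKM, against 1555.5 and 925.5 in the other F1-Control libraries). Whether the 2 are related was not tested. Without it, Gpi1, Pgk1, Eno1 and Ldha were called lower (adjusted p = 0.0447 for Pgk1, 0.0364 for Eno1 and 0.0382 for Ldha), where 3.04% of all genes were called lower. Leaving hemoglobin and mitochondrially encoded genes out of the scaling left Gpi1 the only member called.

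Both hexokinases and Pfkp had the opposite sign at Pd7. Hk1 had 7.22, 5.26 and 7.18 FPKM in F1-Control and 7.91, 8.25 and 10.5 FPKM in F1-HHcy, without overlap, with a log2 difference of 0.39 (SE 0.17; adjusted p = 0.153). Hk2 had 2.61, 1.02 and 3.11 FPKM against 3.05, 3.37 and 5.10 FPKM, and a log2 difference of 0.62 (SE 0.27; adjusted p = 0.152). Pfkp overlapped (0.25, SE 0.16; adjusted p = 0.312). None of the 3 passed the test. In all, Hk1 lay above and Gpi1, Pgk1 and Eno1 lay below without overlap, 4 of 10 members, where 39.0% of all genes did not overlap (19.5% as lower).

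At Pd21 no member was called by limma or by limma-voom, where limma called 2.23% of all genes. That share was not stable, at 0.0077% to 1.4% with single libraries left out. In the main fit 1 member had an unadjusted p under 0.05 (6.85% of all genes). The differences were negative for 9 of 10 members (52.5% of all genes), with a median of -0.20 against -0.011 over all 13350 genes tested. Pfkl was the clearest, at 24.6, 23.5 and 25.5 FPKM in F1-Control and 16.9, 17.9 and 17.7 FPKM in F1-HHcy. The groups stood well apart, and the log2 difference was -0.47 (SE 0.12; adjusted p = 0.153, limma). Pkm was the other member without overlap, at 78.5 to 81.9 FPKM in F1-Control and 69.0 to 76.2 FPKM in F1-HHcy, which makes 2 of 10, both lower, where 10.5% of all genes did not overlap and 8.61% were lower. F1-HHcy replicate 1 held the lowest Pgk1 (44.0 FPKM), Eno1 (80.5 FPKM) and Ldha (27.8 FPKM) of the day. Without it the differences of Pgk1 and Ldha turned from -0.21 and -0.22 to 0.14 and 0.17, uncalled both ways. At Pd21 the multiciliated and oviduct markers also differed (94.2 to 486.0 FPKM in F1-Control, 8.65 to 20.9 in F1-HHcy, 6 of 7 genes called lower), and their part in the levels of these enzymes was not tested.

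**Figure D2:**
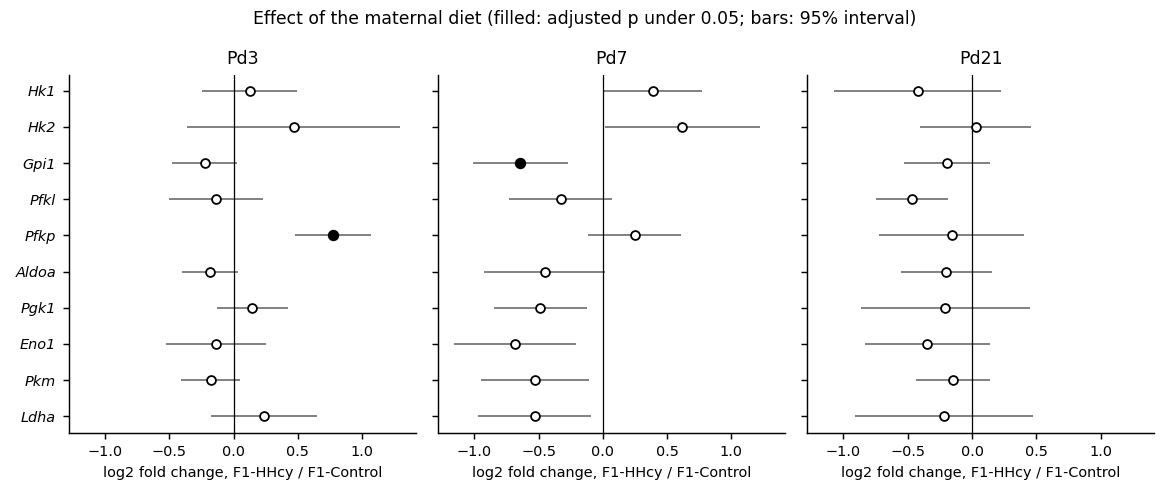
Effect of the maternal diet on each enzyme at each day, as the log2 fold change of F1-HHcy against F1-Control on the log2(FPKM + 1) scale (horizontal axis) with its 95% interval. Filled points have an adjusted p under 0.05: Pfkp at Pd3 (0.77) and Gpi1 at Pd7 (-0.64), while at Pd21 there are none.

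Whether the effect of the diet differed between days was tested directly. No member was called by limma or limma-voom for Pd7 against Pd3, where 0.411% of all 14607 genes were, or for Pd21 against Pd7, where 3.89% were. For Pd7 against Pd3, 1 member had an unadjusted p under 0.05, against 13.8% of all genes, and for Pd21 against Pd7 it was 2 members, against 19.4%. The nearest was Gpi1 in the first (difference of log2 changes -0.42, SE 0.19; adjusted p = 0.351, limma) and Hk1 in the second (-0.81, SE 0.33; adjusted p = 0.186). Hk1 was called in the latter only without F1-HHcy Pd21 replicate 1 (-1.10, adjusted p = 0.0295). For Pd21, age and batch cannot be told apart, although each diet effect lies within 1 batch.

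Changes with age from Pd3 to Pd7, both in batch 1, were compared within each diet. They share libraries with the diet comparisons and are given side by side. In F1-Control ovaries Pfkp rose by 0.78 on the log2(FPKM + 1) scale (SE 0.19, adjusted p = 0.0157, limma). Its levels went from 1.14 to 1.41 FPKM at Pd3 to 2.55 to 3.46 FPKM at Pd7. The Pfkp level of F1-HHcy ovaries at Pd3 (2.82 to 2.98 FPKM) lay within the range of F1-Control ovaries at Pd7. It was the only member called, where 11.4% of all genes were, and the call was lost without F1-Control Pd3 replicate 1 (adjusted p = 0.0726), Pd3 replicate 2 (0.0539) or Pd7 replicate 3 (0.0849). Ldha differed by 0.68 (SE 0.26; adjusted p = 0.106) and did not overlap between the days, like Pgk1 and Pfkp, 3 of 10 members against 38.2% of all genes. In F1-HHcy ovaries none was called by limma or limma-voom, where limma called 5.48% of all genes, and 2 members had an unadjusted p under 0.05, against 23.3% of all genes. There Gpi1 (log2 difference -0.40, adjusted p = 0.0901) and Pkm (-0.37, adjusted p = 0.119) lay lower at Pd7 without overlap and Pfkp higher (0.26, adjusted p = 0.436), 3 of 10 members against 30.7% of all genes. Pkm was called lower without F1-HHcy Pd7 replicate 3 (-0.53, adjusted p = 0.0457), where 2.2% of all genes were called lower. The 5.48% of all genes called in F1-HHcy was not stable. It was 0% when only the groups compared were fitted, and 0.103% to 13.1% with single libraries left out. The 11.4% called in F1-Control varied too. It was 14.5% when only the groups compared were fitted, and 2.95% to 13.2% with single libraries left out.

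Ratios of isozymes within a library do not depend on how libraries are scaled. The ratio of Pfkp to Pfkl was 0.0664, 0.0837 and 0.0656 in F1-Control and 0.158, 0.179 and 0.204 in F1-HHcy at Pd3. At Pd7 it was 0.136, 0.148 and 0.153 in F1-Control and 0.289, 0.223 and 0.195 in F1-HHcy. The F1-HHcy libraries lay above without overlap on both days, by 1.33 at Pd3 and 0.68 at Pd7 on the log2 scale, each with p = 0.1 in a 2-sided exact permutation test, the smallest that 3 libraries against 3 can give. At Pd21 they overlapped (log2 difference 0.30, exact permutation p = 0.6). The muscle-type Pfkm, at 14.3 to 24.3 FPKM in all 18 libraries, lay in the same range as Pfkl (13.4 to 25.5 FPKM). The ratio of Hk2 to Hk1 differed by 0.52, 0.45 and 0.51 on the log2 scale at Pd3, Pd7 and Pd21, with exact permutation p = 0.4, 0.3 and 0.2, and its groups overlapped on each day. For lactate dehydrogenase, the heart-type subunit Ldhb had far higher levels per length, at 666.9 to 1413.2 FPKM. The ratio of Ldha to Ldhb lay between 0.0291 and 0.0918 in all 18 libraries. Its diet differences were 0.045, -0.10 and -0.19 on the log2 scale, with exact permutation p = 0.7, 0.9 and 0.9. Over these 9 tests none could pass a correction.

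**Figure D3:**
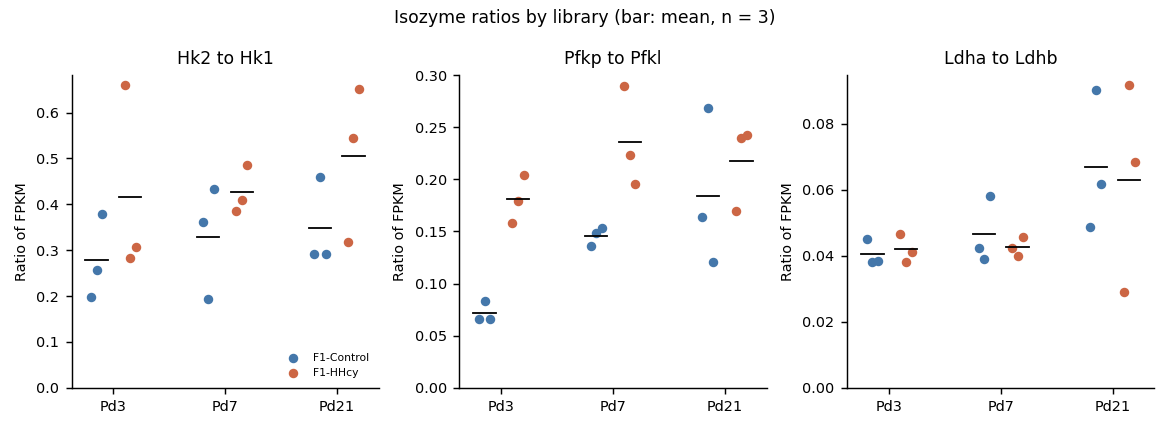
Ratio of the FPKM of 2 isozymes (vertical axis, from 0) in each library by day and maternal diet, with the mean of 3 libraries. Pfkp to Pfkl is higher in all F1-HHcy libraries at Pd3 and Pd7 and overlaps at Pd21, whereas Hk2 to Hk1 and Ldha to Ldhb overlap on all 3 days.

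The steps that none of the 10 genes covers were those of Tpi1, Gapdh and Pgam1. Triosephosphate isomerase Tpi1 had 172.0, 256.3 and 244.4 FPKM in F1-Control and 158.5, 156.0 and 159.5 FPKM in F1-HHcy at Pd7. The groups did not overlap, with a log2 difference of -0.48 (SE 0.18; adjusted p = 0.109), uncalled. Gapdh (-0.28, adjusted p = 0.460) and Pgam1 (-0.28, adjusted p = 0.498) overlapped, and both have many near-identical copies, so their counts are uncertain. Of 19 other glycolysis genes, 10 could be tested at each day. The 1 called was Aldoc, the brain-type aldolase, lower at Pd21 (9.35 ± 4.14 FPKM in F1-Control, 2.02 ± 0.135 FPKM in F1-HHcy; log2 change -1.68, adjusted p = 0.0289, n = 3, limma), where 2.23% of all genes were called. That call held only without F1-Control Pd21 replicate 2 among the 6 fits that left out a library. The F1-Control libraries of Pd21 held 10.8, 4.67 and 12.6 FPKM of Aldoc. Their multiciliated and oviduct marker sums were 391.8, 94.2 and 486.0 FPKM, against 8.65 to 20.9 FPKM in F1-HHcy. The part of these markers in the Aldoc difference was not tested.

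Of 7 tested glucose and lactate transporters, 1 was called at Pd7, where 11.9% of all genes were. Slc16a3, the MCT4 carrier that exports lactate from glycolytic cells, held 11.0, 11.6 and 10.7 FPKM in F1-Control and 4.70, 4.96 and 3.20 FPKM in F1-HHcy. The groups were far apart, and Slc16a3 fell by 1.21 on the log2(FPKM + 1) scale (SE 0.17, adjusted p = 0.00402, limma). The call held whichever library of Pd7 was left out. Among 18 regulators of phosphofructokinase and of pyruvate entry, 3 were lower and 2 higher at Pd7. Pdk1 (-0.62, adjusted p = 0.0221) and Pdk3 (-0.78, adjusted p = 0.0106), kinases that shut off pyruvate dehydrogenase, and Mpc2 (-0.63, adjusted p = 0.0353), a subunit of the mitochondrial pyruvate carrier, fell. Pdk4, a kinase of the same family induced in fasting (0.95, adjusted p = 0.00972), and Pdp1, a phosphatase that opposes these kinases (0.80, adjusted p = 0.00983), rose. The list had 5 of 18 called beside the 11.9% of all genes, and its members moved in both directions. Mpc2 was called only in the refit without F1-Control replicate 3. Without F1-HHcy replicate 1 only Pdp1 was called, and without F1-HHcy replicate 2 only Pdk4 and Pdp1. The gluconeogenic Fbp2 fell from 6.97 ± 2.76 to 2.17 ± 0.790 FPKM (-1.30, adjusted p = 0.0196, n = 3, limma), a call lost without F1-Control replicate 1, F1-Control replicate 2 or F1-HHcy replicate 2.

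Of 21 hypoxia factors and targets outside glycolysis, 4 were called at Pd7, where 11.9% of all genes were. Epas1, the hypoxia factor found in endothelium, rose by 1.16 on the log2(FPKM + 1) scale (adjusted p = 0.00977, limma). It stayed called whichever library was left out. Ankrd37 (-0.89, adjusted p = 0.0100), Car9, a surface carbonic anhydrase (-0.65, adjusted p = 0.0176), and Egln3, an oxygen-sensing hydroxylase (-0.65, adjusted p = 0.0494), fell. Of the 6 refits without single libraries, Ankrd37 and Car9 were called in 3 each, and Egln3 only in that without F1-Control replicate 3. Of 7 MYC family genes, 2 were called beside the same share, as Myc (1.55, adjusted p = 0.0115) and Mlxipl (1.29, adjusted p = 0.00826), a glucose-responsive factor, rose. Myc was no longer called without F1-Control replicate 2 or F1-HHcy replicate 3. At Pd3, Myc was higher too (1.26, adjusted p = 0.0392), and of 8 pentose phosphate enzymes, which branch off the pathway after hexokinase, 2 were called where 3.07% of all genes were, as Tkt (136.5 ± 2.49 to 94.0 ± 2.24 FPKM; log2 change -0.53, adjusted p = 0.0307, n = 3, limma) and Taldo1 (-0.49, adjusted p = 0.0453) fell. The Pd3 call of Myc held only in the refits without F1-HHcy replicate 2 or replicate 3. Those of Tkt and Taldo1 were lost without any library other than F1-HHcy replicate 3. Theca, erythroid, oocyte and granulosa markers had calls at Pd7 as well. So did adipocyte markers (Plin1 and Cfd, higher), multiciliated and oviduct markers (Pax8 and Epcam, lower) and cycling cell markers (Birc5, lower). The part of all these markers in the pathway lists was not tested.

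**Figure D4:**
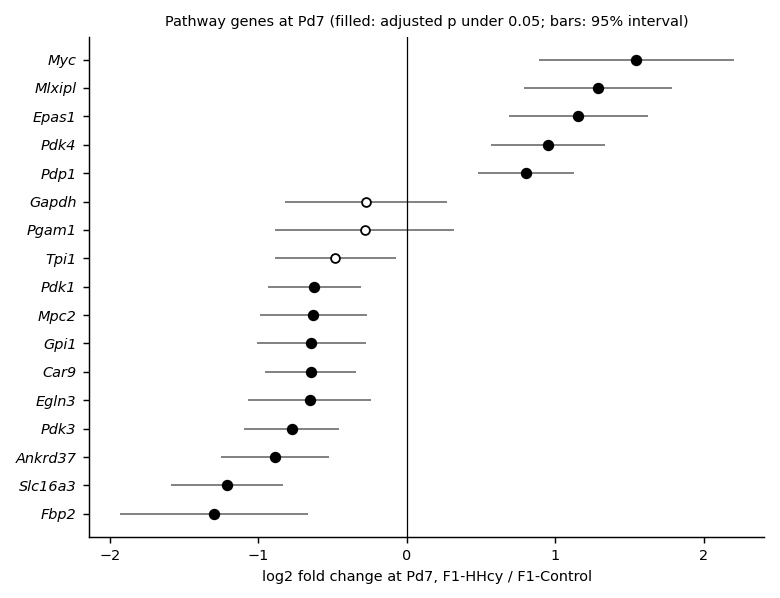
Log2 fold change of F1-HHcy against F1-Control at Pd7 (horizontal axis, log2(FPKM + 1) scale, 95% interval) for Gpi1, for the genes of the pathway lists with an adjusted p under 0.05 (filled) and for Tpi1, Gapdh and Pgam1 (open). Slc16a3 (-1.21) and Fbp2 (-1.30) lie lowest, and Myc (1.55) and Mlxipl (1.29) highest.

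For each member the 2 genes with the closest profile over the 18 libraries were found by the mean absolute difference of scaled log2 levels, among 14606 genes. Ldha was closest to Vdac1, a channel of the outer mitochondrial membrane (0.232 SD, where the median gene was 1.14 SD away), and to Hmgn1 (0.237 SD). Aldoa was closest to Pfn1 (0.242 SD) and Drg2, Gpi1 to Sh3bgrl3 (0.259 SD) and Ap1m2, and Pfkp to Steap4 (0.270 SD) and E330021D16Rik. Pkm was closest to Psmd1 and Psmc5, both subunits of the proteasome cap. Pgk1 had Tpi1 (0.361 SD), another glycolysis enzyme, and Ran. Hk1 had Prob1 and Scarb1, Hk2 had Ss18 and Dbt, Eno1 had Galk1 and Smyd2, and Pfkl, with the least close neighbours, had Thop1 (0.423 SD) and Atic. The distances share the libraries and their depth and are a description.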

How the data were processed

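Stranded poly-A RNA-seq libraries of whole ovaries were grouped by the labels. The authors deposited 1 linear value per gene symbol and library, without naming the unit. The deposited values were read as FPKM because 1 length per gene and 1 factor per library turned them into whole fragments (within 0.02) for 99.989% of 27294 genes. The submitters' processing notes list Trimmomatic 0.39, STAR 2.7.9a, featureCounts 2.0.1, DESeq2 1.36.0 and build GRCm38. The authors' use of DESeq2 does not show in the deposited values, which carry a gene length and a library total. Whether counting used strand is not given in the sources used here.

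Diets were compared within each day with limma 3.58.1 (R 4.3.3), with a variance trend, on log2(FPKM + 1), keeping genes that reached 1 FPKM in 3 or more of the 6 libraries. Differences between days were tested in 1 model of all 18 libraries. Log2 changes of genes are on the log2(FPKM + 1) scale unless stated otherwise, and adding 1 FPKM understates the change of a low gene. A gene was called at a Benjamini-Hochberg adjusted p under 0.05 over all genes tested. Calls by an unadjusted p under 0.05 with a log2 change above 0.58 were an alternative. All 10 members passed the filter in every comparison. Genes named are the members, the called genes of the pathway lists (at most 4 a list and day, with the smallest p), and Tpi1, Gapdh and Pgam1. The limma-voom fit, the sum of Eno1 and Eno1b and the refits of the pathway lists without single libraries were added after seeing the data, and Mpc2, Pfkm and Eno1b were named after their values were seen. The members and lists were chosen with earlier results of these data known. Figures used Python 3.11.15 and matplotlib 3.10.9.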

Additional observations from a re-analysis of the deposited data

How the results depend on the processing

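No called member changed direction under any alternative. Calls at Pd3 and Pd7 did not hold throughout. The count of members called higher at Pd3 was 1 (1.64% of all genes), and it was 0 without a filter on low values (0%). With single libraries left out it ranged from 0 to 2, where 0% to 9.34% of all genes were called higher. The count called lower at Pd7 was 1 (5.98% of all genes), and it was 0 without a filter (0.105%). By the unadjusted p with a log2 change above 0.58 it was 2 (Gpi1 and Eno1, 7.35% of all genes), with 1 higher (Hk2, 9.06%). With all 18 libraries in 1 model it was 3 (Gpi1, Eno1 and Pkm, 6.97%). With single libraries left out it was 0 to 4, where 1.96% to 6.88% of all genes were called lower. More genes were tested without the filter. For the diet effect at Pd21 minus Pd7 the count called lower was 0 (2.9% of all genes). It was 1 (Hk1) by the unadjusted criterion (9.72% of all genes) and 0 to 1 with libraries left out (0.994% to 6.02%). For Pd7 against Pd3 in F1-Control it was 1 higher (5.27% of all genes). It was 2 (Pfkp and Ldha) by the unadjusted criterion (6.76%) and 2 when only the groups compared were fitted (6.9%). With libraries left out it was 0 to 2, where 1.86% to 5.17% of all genes were called higher. In F1-HHcy it was 0 lower (3.18% of all genes), and 0 to 1 with libraries left out (0.0137% to 8.18%). The cause was not tested. The log2 difference of the Pfkp to Pfkl ratio at Pd3 was 0.91 with 1 FPKM added to both genes, in place of 1.33.

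Same-numbered replicates did not deviate together (correlations of -0.34 to 0.087), and the main fits used no pairing. With 3 libraries a group, these correlations cannot exclude that the numbers share a preparation. With the replicate number as a block in limma, 0 members were called at Pd3 (Pfkp adjusted p = 0.127). At Pd7, 2 were called lower (Gpi1 and Eno1), where 6.91% of all genes were. Over all genes the Pd3 calls went from 218 higher and 190 lower to 0 and 1, and the Pd7 calls from 1577 to 1874.

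Uncalled differences near 0 changed sign in places. Between Pd3 and Pd7, Pkm in F1-Control was 0.045 with median-ratio scaling and 0.046 with limma-voom in place of -0.023, and Pfkl in F1-HHcy was 0.019 and 0.022 in place of -0.033. With single libraries left out the ranges were -0.12 to 0.12 (Pkm, F1-Control), -0.079 to 0.14 (Gpi1, F1-Control), -0.22 to 0.071 (Pfkl, F1-HHcy) and -0.28 to 0.070 (Ldha, F1-HHcy). For the diet at Pd3 they were -0.019 to 0.26 (Hk1) and -0.24 to 0.046 (Eno1). At Pd21 they were -0.079 to 0.15 (Hk2), -0.35 to 0.072 (Pfkp), -0.47 to 0.14 (Pgk1) and -0.45 to 0.17 (Ldha). For the difference of diet effects they were -0.16 to 0.56 (Hk2, Pd7 minus Pd3) and -0.24 to 0.045 (Pfkl, Pd21 minus Pd7).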
